A study of Mus musculus with 9 samples.

Results

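Cells of mouse bone marrow that contained RNA of the surrogate light chain were examined. They were chosen by their own counts: a cell was taken when Vpreb1, Vpreb2, Igll1 and Dntt together had at least 2 counts, when S100a8 and S100a9 made up less than 2% of its counts, and when Mpo, Elane, Prtn3 and Ctsg made up less than 0.5%. Of 880 cells kept from 900 barcodes, 122 met the rule (13.9%). The whole bone marrow came from C57BL/6 mice aged 2 to 3 weeks and was profiled by Drop-seq, in which each cell is caught in a droplet with a barcoded bead and its RNA is counted per gene. The tables hold 100 barcodes for each of 9 libraries. Of these, 5 were described as from NG2-cre/Pot1a wt/wt mice and the other 4 as from NG2-cre/Pot1a fl/fl mice. The paper, however, calls its control mice for this experiment wildtype, so whether the controls carried the NG2-cre transgene was not settled here. Only the fl/fl mice had both alleles of Pot1a, a gene for a protein that binds telomeric DNA, flanked by Cre target sites. Cre in this transgene is driven by the promoter of Cspg4 (NG2), which is active in pericytes and mesenchymal stem cells. The deletion is thus aimed at the stroma and not at the B-lineage cells described here, and the comparison of genotypes asked how B-cell precursors fared in such a marrow.

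The surrogate light chain stands in for the immunoglobulin light chain before the light-chain genes have been rearranged. Igll1 (lambda 5) and a VpreB protein, encoded by Vpreb1 or Vpreb2, pair with a newly made mu heavy chain to form the pre-B-cell receptor, and signalling from this receptor drives the expansion of large pre-B cells and then shuts off transcription of the surrogate light chain itself. Dntt encodes terminal deoxynucleotidyl transferase, which adds untemplated bases at the heavy-chain joints and belongs to the pro-B stage, before a receptor is present.

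The 3 surrogate light chain genes lie on chromosome 16, and their promoters are shown here because these genes define the cells. In the gene models of GENCODE vM21 (genome GRCm38, the same build as mm10), Igll1 spans chr16:16860671-16863985 and Vpreb1 chr16:16868403-16870843, both on the minus strand and only 4417 bases apart, whereas Vpreb2 lies at chr16:17980428-17981273 on the plus strand. Dntt is on another chromosome, at chr19:41029275-41059525. The sequences run from 250 bases before to 50 bases after the transcription start given by RefSeq (GRCm38.p6), 5′ to 3′ on the strand of the gene. Capitals mark CAGGTG on either strand (CACCTG when read from the other strand), a form of the E-box, the motif of the E proteins.
Igll1 chr16:16863936-16864235 (minus strand): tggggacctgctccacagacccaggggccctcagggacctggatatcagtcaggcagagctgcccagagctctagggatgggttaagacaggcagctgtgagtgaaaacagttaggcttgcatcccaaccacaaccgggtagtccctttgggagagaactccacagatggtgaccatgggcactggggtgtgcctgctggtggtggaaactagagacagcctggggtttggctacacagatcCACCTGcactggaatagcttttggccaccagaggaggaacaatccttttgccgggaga
Vpreb1 chr16:16869206-16869505 (minus strand): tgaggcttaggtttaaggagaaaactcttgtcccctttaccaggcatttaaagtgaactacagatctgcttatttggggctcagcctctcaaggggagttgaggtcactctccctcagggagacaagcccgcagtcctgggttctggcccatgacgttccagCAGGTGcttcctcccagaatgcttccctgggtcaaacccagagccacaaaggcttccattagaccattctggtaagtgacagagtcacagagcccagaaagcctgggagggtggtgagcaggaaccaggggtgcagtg
Vpreb2 chr16:17980315-17980614 (plus strand): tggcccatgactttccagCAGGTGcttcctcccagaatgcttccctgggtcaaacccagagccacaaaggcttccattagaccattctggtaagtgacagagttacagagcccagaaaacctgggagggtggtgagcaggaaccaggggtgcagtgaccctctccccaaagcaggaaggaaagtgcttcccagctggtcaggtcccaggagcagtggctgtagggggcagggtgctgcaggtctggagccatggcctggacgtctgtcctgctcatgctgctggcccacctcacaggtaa
The GENCODE models of Vpreb1 and Vpreb2 begin upstream of the RefSeq starts, and the whole printed window of Vpreb1 lies inside its model. Distances from the start of these genes thus depend on the annotation. Each of the 3 printed windows held 1 match, and the window of Dntt held 0. The matches began 8 bases before the RefSeq start of Igll1, 88 before that of Vpreb1 and 232 before that of Vpreb2. The same letters occurred in 20.2% of the 32851 promoter windows of the table, so a match by itself describes the letters only. Shifted by 144 bases, the Vpreb1 and Vpreb2 windows were identical at 153 of 156 aligned bases. Of the 50-base windows of the Vpreb2 transcript 32.8%, and of the 300 windows nearest its 3′ end 15%, were also present in Vpreb1. Part of the reads from one gene therefore could not be placed on either, and the split between Vpreb1 and Vpreb2 is uncertain to that extent.

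Data quality was checked first. A single barcode was removed for a mitochondrial share above 25%, and 19 barcodes of Pot1a wt/wt 3 were removed because they were also present in Pot1a wt/wt 2, the only pair among 36 that shared any. Of these 19, 1 would have met the rule. Total counts per library ran from 119459 to 465277. Of 131 cells with at least 2 counts of the rule genes, 9 were removed by the limits on granulocyte RNA, 6 of them in Pot1a wt/wt 5. The chosen cells had a median of 2979.5 counts (range 573 to 16404), against 2256 in all other kept cells, and the 2 shallowest libraries were Pot1a fl/fl 3 and Pot1a wt/wt 5, with medians of 1056 and 1516 counts per chosen cell. Scrublet marked 39 kept cells as doublets, 3 of them among the 122.

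The counts that chose the cells were low. They had a median of 6 and a maximum of 26 per cell, with 28 cells at 10 or more, 41 cells at 3 to 5 and 19 cells at exactly 2. Just outside the threshold, and within the granulocyte limits, stood 51 cells with a single count. Their median depth was 2501 counts against 2850 in the cells with exactly 2. Of the 758 other kept cells, whether within those limits or not, 666 had none. Igll1 was found in 115 of the 122 cells (450 counts) and Vpreb1 in 103 (313 counts). Vpreb2 was found in 30 cells (53 counts) and Dntt in 29 (75 counts). Igll1 and Vpreb1 occurred together in 98 cells, all 4 genes in 12, and Dntt as the only rule gene in 2.

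**Figure D1:**
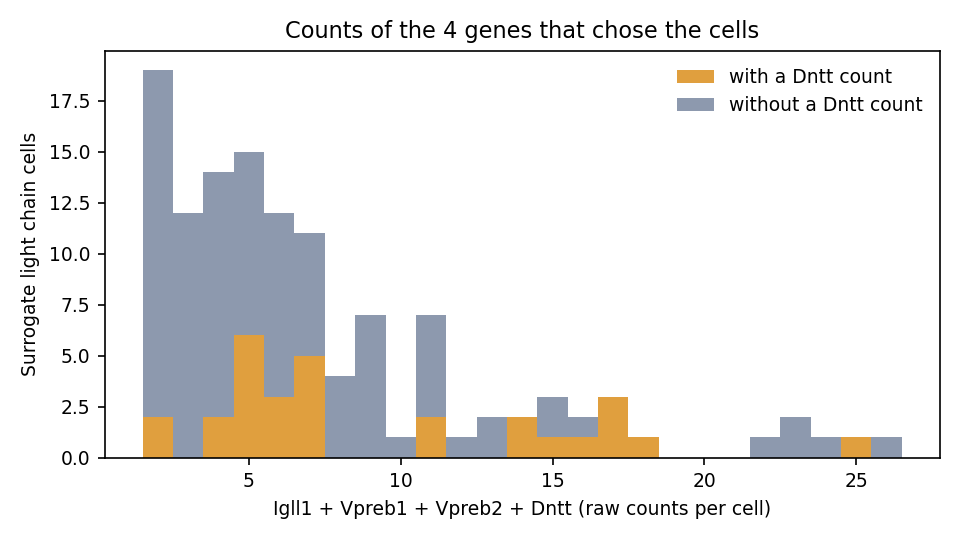
Number of surrogate light chain cells (y axis) against the summed raw counts of Igll1, Vpreb1, Vpreb2 and Dntt per cell (x axis), stacked by whether a Dntt count was present. The 19 cells at 2 counts border the threshold, and the 29 cells with Dntt are spread over the range rather than gathered at one end.

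The label pro-B-like was then compared with markers the rule had not used. Genes of the B lineage were present throughout: Vpreb3, which encodes a chaperone-like partner of the pre-B-cell receptor, in 110 cells, Ebf1, the transcription factor that commits cells to the lineage, in 90, Cd79a, the signalling chain of the receptor, in 65, Pax5, which maintains B identity, in 64, and Il7r, the receptor for the cytokine interleukin 7, in 64. Ighm, the mu heavy chain constant region, was found in 106 cells with 468 counts. Genes that mark the pro-B stage were sparse, however. Dntt was absent from 93 cells, Rag1 and Rag2, the recombinase, were found in 10 and 14 cells, Kit and Flt3 had 4 counts each, and Cd34 had 0. Of the 6 markers of T and NK cells, Cd3e, Cd3g and Trbc2 also had 0 counts, whereas Cd3d, Lck and Nkg7 were detected. These markers place the cells in the B lineage but do not separate pro-B from large pre-B cells, and at this depth a missing gene is often a gene that was not sampled. The cells are therefore called surrogate light chain cells below.

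The same genes were next counted in kept cells outside both B-lineage classes, as a measured background. This background includes the 9 cells with at least 2 rule-gene counts that the granulocyte limits had removed. In the 317 kept cells past the limits on granulocyte RNA, which were not chosen on any B-lineage count (median 2179 counts), Igll1 was found in 6.31%, Vpreb1 in 5.36%, Vpreb2 in 1.58% and Dntt in 1.58%, with Ebf1 in 8.20%, Vpreb3 in 15.5% and Ighm in 23.0%. Among all 651 kept cells that belonged to neither B-lineage class (median 2302 counts), where the choice of the classes itself limits the counts of Igll1, Vpreb1, Vpreb2, Dntt and Vpreb3, Igll1 was found in 5.68%, Vpreb1 in 4.30%, Vpreb2 in 0.768% and Dntt in 0.922%. The same cells contained Ebf1 in 8.29%, Vpreb3 in 12.6% and Ighm in 20.0%, against 73.8%, 90.2% and 86.9% of the surrogate light chain cells. Hbb-bs, an adult beta globin of red cells, was found in 118 of the 122 cells and in 97.8% of those 651, so a globin count in a B-lineage droplet was the norm. The 8 erythroid markers together had a level of 1950 to 98483 CPM (counts of a gene scaled to 1000000 counts of the same cells) in the surrogate light chain cells of a library, the highest in Pot1a wt/wt 5, and 11294 to 84962 in all other kept cells. Granulocyte markers, 10 in all, had 1071 to 15375 CPM against 39920 to 170339 in all other kept cells, a gap that the rule itself helped to set.

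Levels were next compared with all other kept cells, library by library, as a description without a test because the cells had been selected on 4 of these genes. Igll1 stood at 1160 CPM ± 379 (SD, n = 9 libraries) against 27.5 ± 25.6, and Vpreb1 at 838 ± 334 against 30.1 ± 44.1. Among the 20 genes with the highest fold, the 16 that the rule did not use were led by Lef1, Bfsp2, Vpreb3, Crip1, Mzb1, Ptprcap and Ebf1. Lef1, a transcription factor of the Wnt pathway that supports early B cells, had 342, 393, 490, 254 and 208 CPM in the wt/wt libraries and 419, 96.6, 454 and 289 CPM in the fl/fl libraries. All of these values lay above the highest level of Lef1 in other kept cells of any library, and the means were 327 ± 128 and 17.5 ± 12.4 CPM. Ebf1 stood at 639 ± 283 CPM against 111 ± 59.6 and Vpreb3 at 1345 ± 403 against 236 ± 105. Mzb1, which assists immunoglobulin assembly in the endoplasmic reticulum, reached 419 ± 167 CPM against 52.1 ± 39.0. Of 1738 genes that the rule had not used and that were found in at least 20% of all kept cells, 157 (9.03%) were higher in the surrogate light chain cells than in all other kept cells in every one of the 9 libraries, with Vpreb3, Crip1, Ptprcap, Ebf1 and Ighm among them.

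The nearest neighbours in the marrow were other B-lineage cells, taken as kept cells within the same granulocyte limits that had at least 2 counts of Cd79a, Cd79b and Vpreb3 but had not met the rule. There were 107 such cells with a median of 1939 counts. Pot1a fl/fl 2 held only 1 of them and was left out of their levels, which leaves 8 libraries. Vpreb3, Cd79a and Cd79b chose these cells, so their levels in this class were raised by the choice and are given as values only: 1345 CPM in surrogate light chain cells and 1604 in other B-lineage cells for Vpreb3, 273 and 256 for Cd79a, 263 ± 138 and 468 ± 247 for Cd79b. Pax5, which chose neither class, had 289 and 288 CPM. Il7r had 361 ± 140 CPM in surrogate light chain cells and 442 ± 275 in other B-lineage cells. Ighm was found in 86.9% and 86.0% of the cells, and its level was lower in the surrogate light chain cells in 7 of 8 libraries (means 1142 and 1471 CPM).

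Some genes that had chosen neither class stood apart from the other B-lineage cells in every library. Of 2048 such genes found in at least 20% of the cells of both classes combined, 32 (1.56%) were higher in the surrogate light chain cells in 8 of 8 libraries, among them Bfsp2, Lef1, Mrpl21, Ptpn18 and Crip1. Erg and Uaca did not reach that share of cells and came to notice through their level in the surrogate light chain cells. Erg, an ETS transcription factor of stem cells and early B cells, had 64.0, 153, 196, 127 and 156 CPM in the wt/wt libraries and 489, 174, 454 and 103 CPM in the fl/fl libraries. Its mean in other B-lineage cells was 6.23 CPM, and 6 of the 8 libraries had no count of it there. Uaca had 148 ± 128 CPM and not a single count in other B-lineage cells. Crip1, a LIM-domain protein, reached 1899 ± 661 CPM against 697 ± 466, a ratio of 2.72, and Bfsp2, which encodes an intermediate filament protein best known from the lens, 317 ± 146 against 54.9 ± 51.8. Ccnd2, the D-type cyclin that responds to cytokines in B-cell precursors, had 376 ± 135 CPM against 152 ± 140 and was higher in 7 of 8 libraries.

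Light-chain RNA ran the other way. Igkc, the kappa constant region, had 342, 197, 39.2, 206 and 104 CPM in the surrogate light chain cells of the wt/wt libraries and 163, 116, 454 and 196 CPM in those of the fl/fl libraries. The mean of 202 ± 127 CPM compared with 1240 ± 657 in other B-lineage cells and 253 ± 217 in all other kept cells. The last group includes the other B-lineage cells, which held 330 of its 464 Igkc counts. In the kept cells of neither B-lineage class Igkc was found in 14.1% of cells, against 29.5% of surrogate light chain cells. With cells thinned to the same depth these shares were 5.17% and 9.96%. Kappa joining segments had 7 counts in 6 surrogate light chain cells against 51 counts in 28 of the other B-lineage cells, and lambda genes 2 counts against 25. Of the same 2048 genes, 20 (0.977%) were lower in 8 of 8 libraries. They included Igkc, Ly6d, a surface protein of B-lineage specified cells (54.5 ± 41.3 against 316 ± 152 CPM), Nfkbia, the inhibitor of NF-kappa B (179 ± 95.6 against 717 ± 461 CPM), and Btg1, an antiproliferative gene (209 ± 76.0 against 632 ± 303 CPM).

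**Figure D2:**
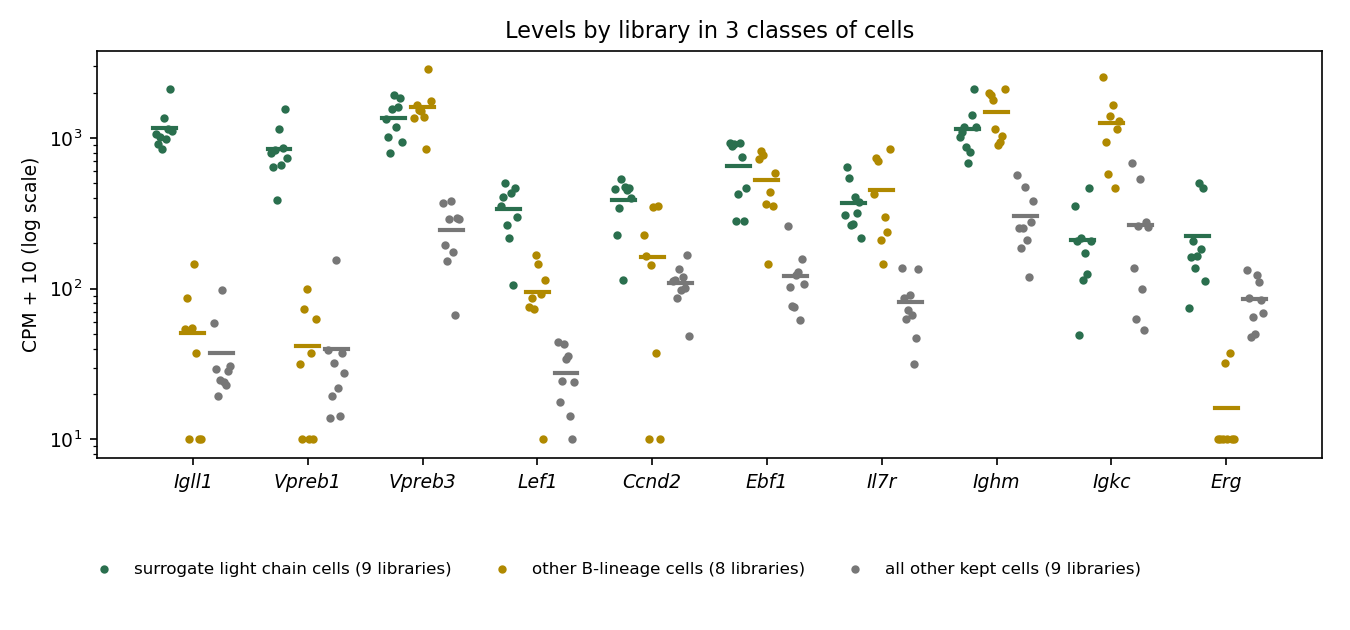
Level of 10 genes (x axis) in CPM plus 10 on a log scale (y axis), 1 point per library and a bar at the mean, for surrogate light chain cells, other B-lineage cells and all other kept cells. Igll1 and Vpreb1 chose the cells. Lef1 did not, and it lies higher in surrogate light chain cells than in other B-lineage cells in each of the 8 libraries. Igkc lies the other way round. Erg was picked for its level in the surrogate light chain cells, so its higher position there follows from that choice.

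Whole gene lists followed the same outline. The list of genes of pre-B-cell receptor signalling summed to 4951 ± 861 CPM in surrogate light chain cells and 5759 ± 1349 in other B-lineage cells, and 9 of its 16 genes were higher in the former, with Cd79a and Cd79b, which chose the latter, among the 16. Transcription factors of the B lineage summed to 3868 ± 797 and 3722 ± 1230 CPM, with 10 of 20 higher. Genes of later B cells summed to 1082 ± 331 and 2645 ± 1228 CPM, with only 2 of 12 higher, and the sum was lower in surrogate light chain cells in 8 of 8 libraries. The 7 shelterin and telomere genes in the tables summed to 348 ± 93.2 against 229 ± 96.3 CPM and were higher in 8 of 8 libraries, although their median log2 ratio was near 0 and 2 of the 7 were higher. The sum rested on Terf1, a telomere-binding protein (222 ± 61.0 against 106 ± 101 CPM).

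Proliferation genes were abundant. The S phase genes summed to 9144 ± 1447 CPM in surrogate light chain cells, 6906 ± 1406 in all other kept cells and 8891 ± 1409 in other B-lineage cells, and the sum was above that of all other kept cells in 9 of 9 libraries and above that of other B-lineage cells in 4 of 8. The G2 and M genes summed to 25134 ± 2964, 19370 ± 2825 and 29329 ± 9875 CPM, above all other kept cells in 8 of 9 libraries and above other B-lineage cells in 3 of 8. Mki67, found in 104 of the 122 cells, had 1681 ± 437 CPM against 2203 ± 918 in other B-lineage cells and was higher in 2 of 8 libraries. It was also found in 76.3% of the kept cells of neither B-lineage class. The 30 genes of the G2 and M phases made up a median of 2.27% of the counts of a surrogate light chain cell, with a range from 0.0930% to 6.62%, and 2.95% of those of another B-lineage cell. The 30 genes of the S phase made up 0.920% and 0.784%. All 122 cells had at least 1 count of the G2 and M genes and 3 had none of the S phase genes.

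The cells were then divided by Dntt, since Dntt belongs to the pro-B stage. The 29 cells with a Dntt count and the 93 without had similar depth, with medians of 2791 and 3009 counts. The 29 cells were unevenly spread. They made up 0%, 27.3%, 22.2%, 21.4% and 36.4% of the surrogate light chain cells of the wt/wt libraries and 70.0%, 20.0%, 9.09% and 16.7% of those of the fl/fl libraries, so that Pot1a fl/fl 1 gave 7 of the 29 while Pot1a wt/wt 1 gave none. Counts were summed per library and compared within library in the 7 libraries with at least 3 cells on both sides, by edgeR's quasi-likelihood test with the library as a block.

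Of 280 genes tested that the rule had not used, 1 passed at an adjusted p below 0.05 (0.357%), and this was Cd24a. It encodes CD24, the heat-stable antigen, whose surface level is used to grade early B-cell fractions. In cells with Dntt its level was 1686, 583, 586 and 1463 CPM in Pot1a wt/wt 2 to 5 and 468, 648 and 769 CPM in Pot1a fl/fl 1, 2 and 4. In cells without Dntt it was 2382, 2002, 2116 and 3940 CPM in the same wt/wt libraries and 1613, 1840 and 1503 CPM in the same fl/fl libraries. Cd24a was lower in cells with Dntt in 7 of 7 libraries, while the ranges of the 2 sides overlapped only at their edge. The log2 difference was -1.32 ± 0.20 (SE), with an adjusted p of 2.03e-04 by edgeR. It rested on 83 counts with Dntt and 528 without. Dntt was itself one of the genes that admitted a cell, and 4 cells with Dntt had fewer than 2 counts of the other rule genes. With at least 2 counts of Igll1, Vpreb1 and Vpreb2 required on both sides, an alternative chosen after the data were seen that left 118 cells and 6 libraries, the log2 difference was -1.51 ± 0.24 (adjusted p = 7.56e-06 by edgeR), and Cd24a was again the gene called. H2afy, which encodes the histone variant macroH2A1, was higher with Dntt in 7 of 7 libraries (1114 ± 371 against 534 ± 85.2 CPM), with a log2 difference of 0.99 ± 0.25 and an adjusted p of 0.0844 by edgeR that missed the threshold.

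Genes of lower counts stood outside that test and are given as counts. Erg was found in 21 of 29 cells with Dntt and 13 of 93 without. By library, Erg had 407, 750, 391 and 209 CPM with Dntt in Pot1a wt/wt 2 to 5 and 602, 519 and 320 CPM in Pot1a fl/fl 1, 2 and 4, against 0 to 230 CPM in the cells without Dntt, and it was higher with Dntt in 7 of 7 libraries. Rag1 was found in 6 of 29 cells with Dntt and 4 of 93 without, and Rag2 in 8 and 6. Igkc had 1 count in the 29 cells with Dntt, against 78 counts in 35 of the 93 without, and was lower with Dntt in 7 of 7 libraries. With all detected genes kept in place of the filter, Erg and Igkc passed edgeR's test at adjusted p of 0.0397 and 0.00372. The same setting also called Cd72, Fcrla and Myl4, all lower with Dntt. In the comparison of genotypes it called 10 genes where the main test called 0, so its adjusted p-values need caution. DESeq2 called Erg (adjusted p = 0.00235) and did not call Igkc (adjusted p = 0.538). Vpreb2 was found in 13 of 29 and 17 of 93 cells, Igll1 in 25 of 29 and 90 of 93, and Vpreb1 in 25 of 29 and 78 of 93, which is given without a test because these genes and Dntt chose the cells.

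The other genes named here did not pass the test. Ighm had 874 ± 427 CPM with Dntt and 1126 ± 270 without (log2 difference -0.35 ± 0.26, adjusted p = 0.709 by edgeR), Vpreb3 differed by -0.05 ± 0.22 and Mki67 by -0.02 ± 0.21. Top2a, the topoisomerase of dividing cells, differed by 0.50 ± 0.19, with an adjusted p of 0.406 by edgeR. Of 23 ribosomal proteins of the small subunit 18 had negative estimates, with a median log2 difference of -0.12 and no call, beside a median of 0.02 over all 280 genes.

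**Figure D3:**
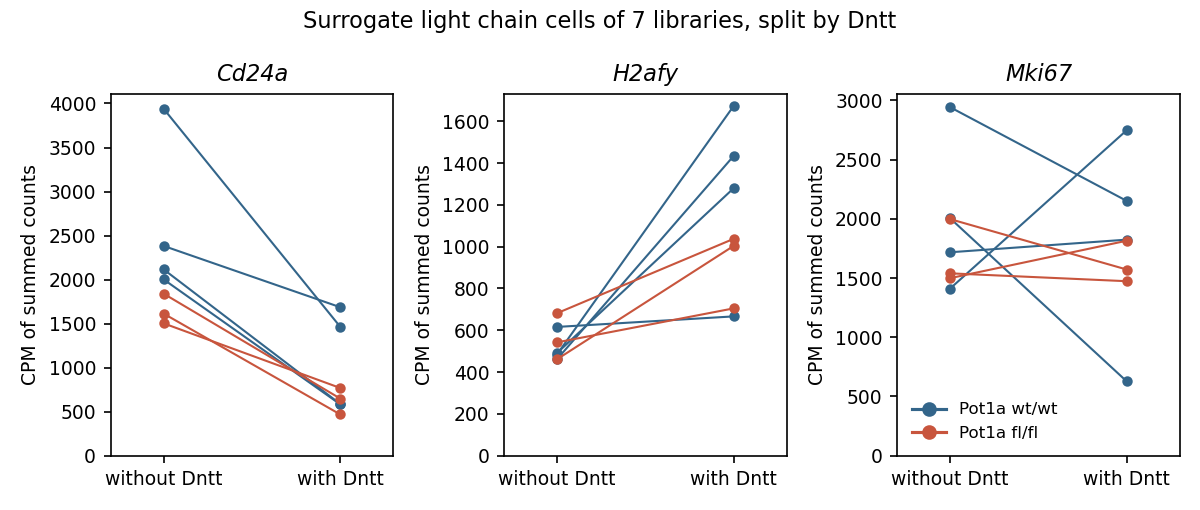
CPM of Cd24a, H2afy and Mki67 (y axes) in surrogate light chain cells without and with a Dntt count (x axis), with 1 line for each of the 7 libraries tested, coloured by genotype. Every line falls for Cd24a, every line rises for H2afy, which missed the threshold, and the lines for Mki67 cross.

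The genotypes were compared first by the number of surrogate light chain cells. In the wt/wt libraries they were 8%, 11%, 22.2%, 14.1% and 11% of the kept cells. In the fl/fl libraries they were 10%, 15%, 11% and 24%. The ranges of the genotypes overlapped almost entirely. The means were 13.3% ± 5.45 (SD, n = 5) and 15% ± 6.38 (n = 4), and the difference of 1.73 percentage points had an interval from -7.65 to 13 and p = 0.635 (two-sided exact permutation test over 126 splits, where 0.0079 is the smallest p possible). The sign rested on Pot1a fl/fl 4, since leaving it out gave -1.27 points. With every cell thinned to 600 counts, which left out 24 shallower cells, 20 of them in Pot1a fl/fl 3, the shares were 4.90% ± 2.53 and 6.87% ± 1.73 (p = 0.222 by the same exact permutation test). No label says which mouse gave which library. The study counted fewer mice than libraries in each genotype, so some libraries may share a mouse. The p-values between genotypes measure the spread between libraries, which may be technical, and are too small where libraries share a mouse.

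The other B-lineage cells numbered 25, 12, 7, 15 and 11 in the wt/wt libraries and 16, 1, 6 and 14 in the fl/fl libraries. Surrogate light chain cells were 48.5% ± 16.9 of both classes together in wt/wt and 65.0% ± 22.6 in fl/fl, with 24.2% to 72.0% in wt/wt and 38.5% to 93.8% in fl/fl. These shares overlapped widely too.

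**Figure D4:**
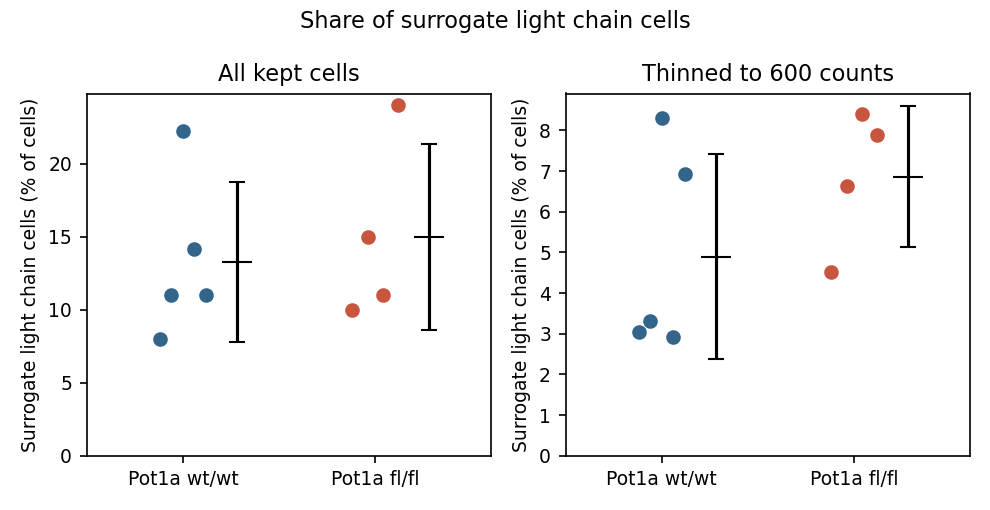
Surrogate light chain cells as a percentage of kept cells (left) and of cells thinned to 600 counts (right), 1 point per library, with the mean and SD in black beside the points of each genotype. The wt/wt libraries range from 8% to 22.2% and the fl/fl libraries from 10% to 24%.

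Gene expression in the surrogate light chain cells was compared between genotypes on counts summed per library. Pot1a itself had 13 counts in 11 of the 122 cells, 7 in wt/wt and 6 in fl/fl, all 6 of the latter in Pot1a fl/fl 4, too few for a comparison. Of 956 genes tested that the rule had not used, 0 (0%) passed at an adjusted p below 0.05 by edgeR, with 26 at an unadjusted p below 0.05, and DESeq2 also called 0. The estimates were evenly divided, 475 positive and 481 negative.

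The rule genes are given as values. Igll1 had 1046, 896, 1001, 840 and 1351 CPM in wt/wt and 979, 1140, 2091 and 1095 CPM in fl/fl. Vpreb1 had 790, 634, 824, 380 and 1143 CPM in wt/wt and 652, 850, 1545 and 723 CPM in fl/fl. For both the genotypes overlapped, and the highest value came from Pot1a fl/fl 3, the shallowest library. Dntt had 0, 197, 177, 47.6 and 260 CPM in wt/wt and 815, 77.3, 90.9 and 93.0 CPM in fl/fl, high in Pot1a fl/fl 1 alone.

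Genes of the B-cell programme showed small estimates. The log2 difference, fl/fl minus wt/wt, was -0.00 ± 0.30 for Vpreb3, -0.13 ± 0.36 for Ebf1, 0.23 ± 0.34 for Pax5, -0.06 ± 0.44 for Cd79a, -0.43 ± 0.35 for Il7r and 0.39 ± 0.26 for Ighm, none past the threshold. Il7r, the receptor through which stromal interleukin 7 acts, had 299, 634, 530, 254 and 260 CPM in wt/wt and 396, 309, 364 and 207 CPM in fl/fl, with wide overlap. Of the 20 transcription factors of the B lineage 9 could be tested, 3 with positive and 6 with negative estimates and a median of -0.08, beside -0.00 over all genes. Of 16 genes of interleukin 7 signalling 3 could be tested, and the one at an unadjusted p below 0.05 was Ccnd3, the D-type cyclin needed for pre-B-cell expansion. Ccnd3 had 448, 415, 255, 618 and 831 CPM in wt/wt and 256, 232, 182 and 300 CPM in fl/fl, a log2 difference of -0.94 ± 0.36 with an adjusted p of 0.988 by edgeR. Of the G2 and M genes 17 of 23 tested had negative estimates (median -0.15) and of the S phase genes 11 of 17 (median -0.07), with 0 called. Of 26 ribosomal proteins of the small subunit 23 had positive estimates (median 0.19), again with 0 called.

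The smallest p belonged to Imp3, which encodes a component of the U3 small nucleolar ribonucleoprotein that processes ribosomal RNA (chr9:56937475-56938398, plus strand). Imp3 had 107, 65.6, 98.1, 159 and 104 CPM in wt/wt and 280, 329, 364 and 393 CPM in fl/fl. All 4 fl/fl libraries lay above all 5 wt/wt libraries, as they did for 10 of the 956 genes (1.05%), and 3 genes (0.314%) were separated in the other direction. The log2 difference was 1.62 ± 0.36 with an unadjusted p of 0.00029 and an adjusted p of 0.281 by edgeR, so that Imp3 was not called. In all other kept cells of the same libraries its level was 58.4 ± 43.4 CPM in wt/wt and 248 ± 27.1 CPM in fl/fl, again without overlap. The difference was thus not particular to the surrogate light chain cells. If the control mice lacked the NG2-cre transgene, its presence also differed between the genotypes, and its part in the level of Imp3 was not tested.

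Red-cell RNA varied between libraries. The 5 erythroid markers tested all had negative estimates and unadjusted p below 0.05, led by Hba-a1 at -4.01 ± 1.10 (adjusted p = 0.785 by edgeR). Hbb-bs had 8113, 1202, 2492, 1030 and 48047 CPM in wt/wt and 1747, 2590, 4454 and 1932 CPM in fl/fl, and Pot1a wt/wt 5 stood far above the rest. Without Pot1a wt/wt 5 the log2 difference of Hbb-bs went from -2.38 to -0.34 and that of Hba-a1 to -1.17. The part of this RNA in the other estimates was not tested, and that of Imp3 was 1.63 without the same library.

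**Figure D5:**
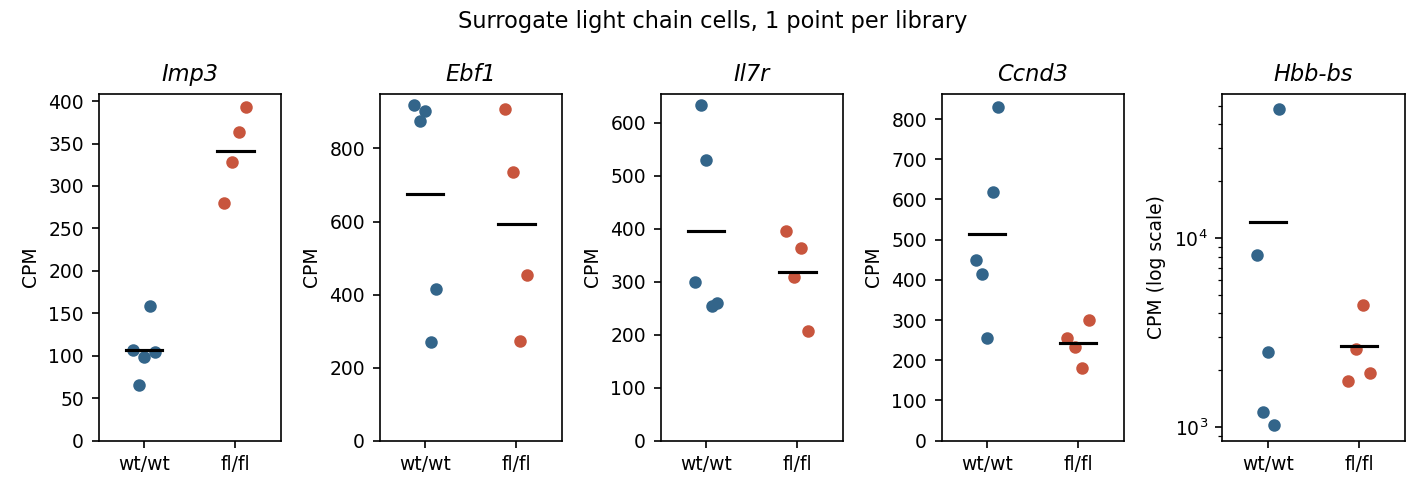
CPM of 5 genes in surrogate light chain cells (y axes, log scale for Hbb-bs) in wt/wt and fl/fl libraries (x axes), 1 point per library and a bar at the mean. The genotypes overlap for Ebf1, Il7r, Ccnd3 and Hbb-bs and do not for Imp3, and none of the 5 passed the adjusted threshold.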

How the data were processed

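Drop-seq libraries of whole bone marrow (5 Pot1a wt/wt, 4 Pot1a fl/fl) were used. The authors aligned reads to mm10 with STAR and deposited raw counts per gene and barcode, made with the Drop-seq software and described by them as read counts. Versions, annotation and the choice of 100 barcodes per library were not stated in any source read. Unused per-sample columns numbered 0. Genes missing from a table were set to 0.

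Cells were taken by the rule given at the opening. Members and gene lists were chosen with earlier results of these data known. Counts were summed per library and fitted by the quasi-likelihood test of edgeR 4.0.16 in R 4.3.3, with TMM scaling, filterByExpr and Benjamini-Hochberg adjustment, and with DESeq2 1.42.0 as an alternative. The genotype test used libraries with at least 5 members. SE was the log2 difference divided by the root of F. Genes of the rule stayed in the fits and in the adjustment, which ran over 960 genes by genotype and 284 by Dntt, but their test results were not used. The interval of the share difference holds the shifts that the exact test did not reject at 0.05. Folds used CPM plus 50. Scrublet ran in scanpy 1.11.5. Members summed to 428370 counts, 11002 to 96799 per library, so 1 count equalled 10.3 to 90.9 CPM; values near that level rest on single counts. The tests were checked on simulated data.

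Named were called genes, the marker genes, Imp3, Pot1a, the most counted genes of each list and, among the 20 genes of highest fold, those described. H2afy, Erg, Mrpl21, Ptpn18, Ly6d, Nfkbia, Btg1 and the globins were named after their values were seen.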

Additional observations from a re-analysis of the deposited data

Results flagged for a closer look

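Of 52 groups of library values looked at (26 measures in each genotype), 6 held a library far from the others of its genotype, where chance gives about 1 in 20. Igll1 reached 2091 CPM in the surrogate light chain cells of Pot1a fl/fl 3, and Cd79a 818 CPM in the same library, the shallowest of the series. Dntt reached 815 CPM in Pot1a fl/fl 1, where 7 of 10 cells had a Dntt count. Cd79b reached 576 CPM in Pot1a wt/wt 1. Cd24a reached 3324 CPM and Hbb-bs 48047 CPM in Pot1a wt/wt 5, the library with the most red-cell RNA in these cells. What sets these libraries apart was not tested.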

How the results depend on the processing

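The difference in share kept its sign and stayed short of the threshold in 18 of 20 alternatives. It reversed to -0.53 percentage points when a single count of the rule genes was enough and, leaving out 1 library at a time, ran from -1.27 (without Pot1a fl/fl 4) to 3.96, with exact permutation p from 0.400 to 0.914. It was 9.57 points among cells within the granulocyte limits (exact permutation p = 0.206) and 2.24 when libraries were permuted within the same sex, read from Xist and Y-linked counts and chosen after the data were seen. The genotype test gave 0 calls in 18 of 19 alternatives, all 9 that left out a library included, and 10 calls (3 higher, 7 lower) when every gene with a count was kept. The Dntt test gave 1 call, 6 without the filter on low counts, 3 with DESeq2, 2 with Scrublet doublets removed, 1 with the same surrogate light chain threshold on both sides, and 1 to 3 when each library was left out. Cd24a was called in 13 of 13 alternatives, with log2 differences from -1.72 to -1.21. Imp3 stayed positive and uncalled in 19 of 19, from 1.35 to 1.83. Libraries of the same replicate number showed no clear correlation of deviations (-0.09, -0.09, -0.15 and 0.13). At this depth such values cannot exclude that the libraries were paired, and the labels do not say. With the replicate number as a block the share differed by 1.16 points and 0 genes were called. A Dntt test after thinning to 600 counts, or with at least 2 Dntt counts, was not possible, because 1 library had enough cells. Low depth limits every value under about 100 CPM.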

Other observations

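Markers of other cells are given here as summed levels in the surrogate light chain cells. The 5 monocyte markers summed to 225 ± 189 CPM (SD, n = 9 libraries) against 2678 ± 696 in all other kept cells, the 6 markers of T and NK cells to 34.2 ± 23.4 against 136 ± 78.9, and the 4 markers of plasmacytoid dendritic cells to 213 ± 94.7 against 232 ± 134. The 3 megakaryocyte markers summed to 76.0 ± 135 CPM against 305 ± 551, with 403 against 20.9 CPM in Pot1a fl/fl 4, and the 4 mesenchymal markers to 148 ± 323 against 1921 ± 5150. The 10 progenitor genes summed to 265 ± 121 CPM, below the 469 ± 138 of other B-lineage cells in 6 of 8 libraries. Gene by gene, however, 6 of the 10 were higher than in other B-lineage cells, and the median log2 ratio was 0.14.

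Heavy-chain variable genes were rarely counted in either B-lineage class: 25 counts in 14 of 122 surrogate light chain cells and 16 counts in 10 of 107 other B-lineage cells. Drop-seq primes from the poly(A) tail, and these counts do not measure how many cells had rearranged a heavy chain.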
